A study of Rattus norvegicus with 10 samples.

Results

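The interferon-stimulated genes are the genes that cells switch on when interferon, the secreted alarm signal of viral infection, binds its receptor. A list of 32 of them was read in RNA sequencing of rat L6 dorsal root ganglia, where cell bodies of sensory neurons lie. Members were found by matching the gene name column of the deposited table of estimated counts, which holds 30560 genes. Of the 32 names, 30 had a row and 29 of these had enough counts to be tested, among 15186 genes tested in all. Oas1b and Samd9l had no row under those names and were not analysed here. Oas2, an enzyme that makes the second messenger of RNA decay, had a row with 2 to 16 estimated counts per library and did not pass the filter on low counts.

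All animals were Sprague Dawley rats aged 7 to 8 weeks with a catheter in the lumbar intrathecal space, and all received isoflurane anaesthesia and the analgesic meloxicam, per the labels. Controls (5 samples) received phosphate-buffered saline (PBS) by that catheter, with an siRNA dose of 0 mg. Treated rats (5 samples) received SCN9A_2544 at 0.75 mg, a divalent siRNA (small interfering RNA) against the sodium channel gene Scn9a, which encodes Nav1.7. Dosing in 30 to 45 µL took place 5 days after catheter surgery, and every sample carries the timepoint 14 days, with no statement of whether it counts from surgery or from dosing. No group given a non-targeting siRNA was analysed here, so the siRNA sequence and dosing with any siRNA cannot be told apart. Since no label ties a sample to 1 animal, p-values here reflect only sample-to-sample spread, which may be technical. A ganglion holds neurons, satellite glia, Schwann cells, vessels and immune cells, and in bulk RNA fewer cells of a type and less RNA per cell cannot be told apart.

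Cells detect foreign RNA and DNA with Toll-like receptors in endosomes and with RIG-I-like receptors and cGAS in the cytoplasm, and respond by secreting type I interferon. Its receptor activates the kinases Jak1 and Tyk2, which phosphorylate Stat2. Stat2 joins Irf9 in a complex that binds the interferon-stimulated response element (ISRE) in the promoters of its targets. Interferon gamma acts on a different site, the gamma-activated sequence (GAS). Double-stranded RNA is a classical inducer of this pathway, and the series asks how specific the SCN9A_2544 siRNA is.

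The promoters of the members are shown first, since the ISRE is the sequence that interferon signalling acts on. RefSeq promoters (250 bases before to 50 after the annotated gene start, build GRCr8) matched 24 of the 32 names. There were none for Usp18, Isg15, Ifit1, Ifit2, Mx2, Oas2, Rtp4 and Samd9l. The ISRE core was searched on both strands as GAAA, any 2 or 3 bases, then GAAA, and matches may overlap each other. It was found in 16 of the 24 promoters (66.7%), against 6.48% of the 33469 promoters in the table. The GAS core, TTCNNNGAA with N any base, which reads the same on both strands and may overlap an ISRE core, was found in 6 of 24 (25.0%), against 8.87% of all. A match is a run of letters and was not shown to be bound. The windows below were chosen to show the core in the regulator Irf7, in effectors of different kinds, and in the antigen transporter Tap1. They are written 5′ to 3′ on the strand of the gene, with the matched core or overlapping cores in capitals.
Irf7, chr1:205800063-205800112, minus strand, core 69 to 60 bases before the start: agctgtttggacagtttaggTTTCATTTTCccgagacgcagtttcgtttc
Ifit3, chr1:241527262-241527318, plus strand, 44 to 28 bases before: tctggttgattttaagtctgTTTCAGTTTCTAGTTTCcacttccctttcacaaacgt
Oas1a, chr12:41330405-41330460, plus strand, 41 to 26 bases before: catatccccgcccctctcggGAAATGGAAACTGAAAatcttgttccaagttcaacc
Oas1b, chr12:41395876-41395931, minus strand, 59 to 44 bases before: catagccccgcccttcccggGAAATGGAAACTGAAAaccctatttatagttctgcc
Oasl2, chr12:47383307-47383356, minus strand, 151 to 142 bases before: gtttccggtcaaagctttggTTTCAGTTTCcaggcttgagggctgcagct
Bst2, chr16:18255063-18255118, minus strand, 131 to 116 bases before: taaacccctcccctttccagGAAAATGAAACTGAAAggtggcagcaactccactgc
Gbp2, chr2:234005676-234005725, plus strand, 31 to 22 bases before: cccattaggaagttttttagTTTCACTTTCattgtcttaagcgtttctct
Tap1, chr20:4668635-4668684, minus strand, 121 to 112 bases before: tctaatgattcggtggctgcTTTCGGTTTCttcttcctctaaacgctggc
Oas1a and Oas1b, neighbouring copies of the oligoadenylate synthetase gene, carry the same run of capitals. In 8 promoters more than 1 match was found, and matches overlap in Ifit3, Oas1a, Oas1b, Bst2 and Ifi44. The 8 promoters with no ISRE match belong to Irf9, Stat2, Mx1, Oasl, Herc6, Parp9, Psmb9 and Ifi35, and a lack of these letters in this window says nothing of a site elsewhere. Tap1 and Psmb9 lie on opposite strands with 457 bases between their starts and share 44 bases of promoter, and Parp9 and Dtx3l lie on opposite strands with 1214 bases between theirs.

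**Figure D1:**
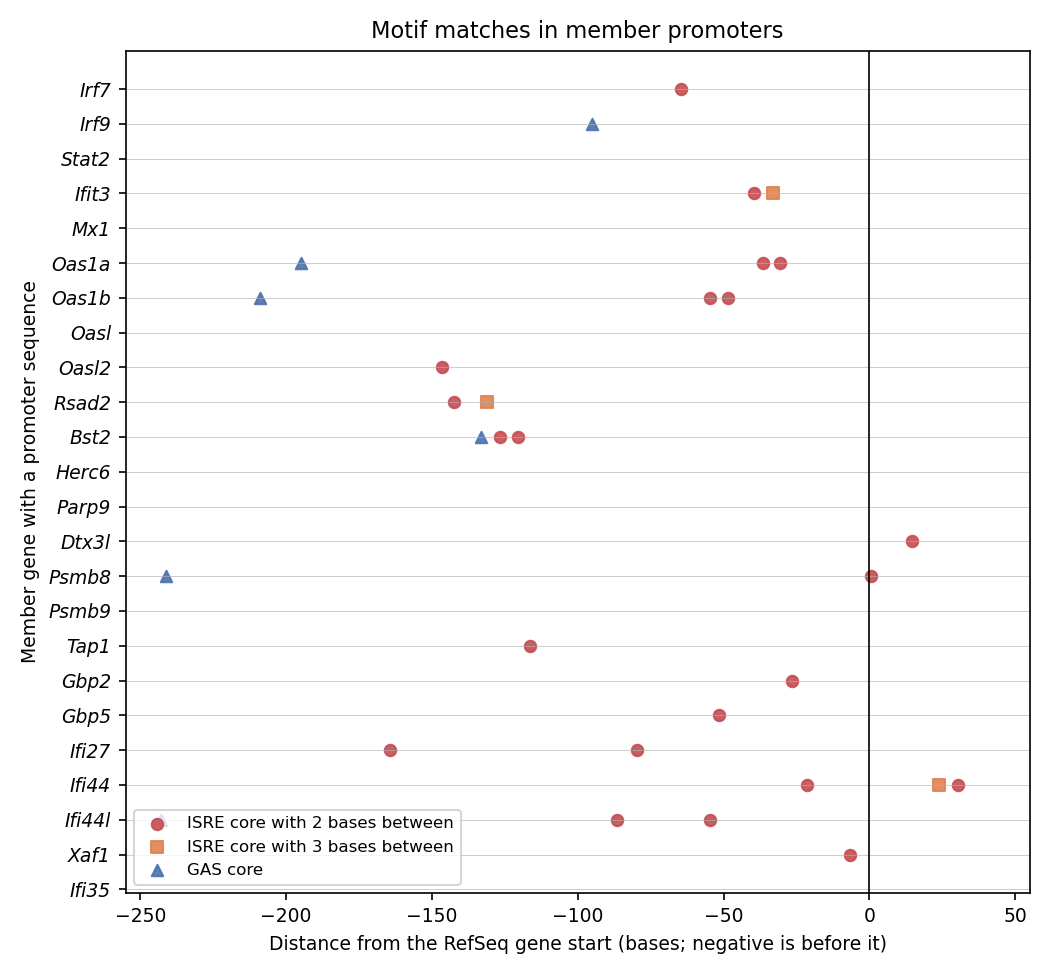
Motif matches in the 24 member promoters, by distance in bases from the RefSeq gene start (horizontal axis, negative values before it), with 1 row per gene. Circles and squares are ISRE cores with 2 or 3 bases between the repeats and triangles are GAS cores; 16 rows hold at least 1 ISRE core.

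Library totals ran from 11832376 to 15420006 estimated counts. Levels are given as CPM, a library-scaled count, and serve to compare libraries for 1 gene, not different genes. Scn9a, the target, stood at 132 to 257 CPM in PBS libraries and at 44.6 to 103 CPM in SCN9A_2544 libraries, a difference of mean log2 CPM of -1.05 (exact permutation test, two-sided, p = 0.00794, which is the least 5 against 5 can give). All 20 pan-neuronal genes, all 11 satellite glia genes and all 15 Schwann cell genes listed were detected. The pan-neuronal mean set 3 libraries apart, SCN9A_2544 replicate 3, PBS replicate 3 and PBS replicate 5, at 8.04 to 8.57 log2 CPM against 9.02 to 9.46 in the other 7. Macrophage markers had 15 of 17 log2 fold changes above 0, with a median of 0.60. The macrophage mean ran from 3.47 to 4.08 log2 CPM in PBS and from 3.96 to 4.78 in SCN9A_2544 libraries. Satellite glia genes had 9 of 11 above 0 and 2 below, with a median of 0.29. The satellite glia mean ran from 5.99 to 6.32 log2 CPM in PBS and from 6.41 to 6.61 in SCN9A_2544 libraries, without overlap. An unadjusted edgeR p under 0.05 was reached by 8 macrophage and 3 satellite glia genes, beside 4.23% of all tested genes. After adjustment 0 of them passed, and over all tested genes 53.4% lay above 0.

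No interferon-stimulated gene passed the test between treated and control ganglia. Of the 29 tested members, 0 passed an adjusted p of 0.05 in edgeR's quasi-likelihood test, where 0% of all tested genes passed. The target Scn9a, lower in every treated library than in any PBS library, did not pass that test either. A count of 0 there does not show that the members were unchanged. DESeq2 also called 0 members, beside 0.095% of all genes. At an unadjusted p under 0.05 there were 0 members by either tool, beside 4.23% of all genes by edgeR and 4.35% by DESeq2. Log2 fold changes of SCN9A_2544 against PBS lay above 0 for 13 members and below 0 for 16, a share above 0 of 44.8% against 53.4% of all tested genes. Their median was -0.04, beside 0.02 over all tested genes, and they ran from -0.61 for Isg15 to 0.31 for Mx2. For 0 members did the groups fail to overlap, against 0.665% of all tested genes. The 95% interval of every tested member held 0, and it ended below 1 on the log2 scale for 28 of the 29, Ifit1 being the exception with an upper end of 1.37. It reached below -1 for 7 members, Irf7, Isg15, Ifit1, Ifit3, Oas1a, Rsad2 and Ifi44, for which a decrease of that size lies within the interval.

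**Figure D2:**
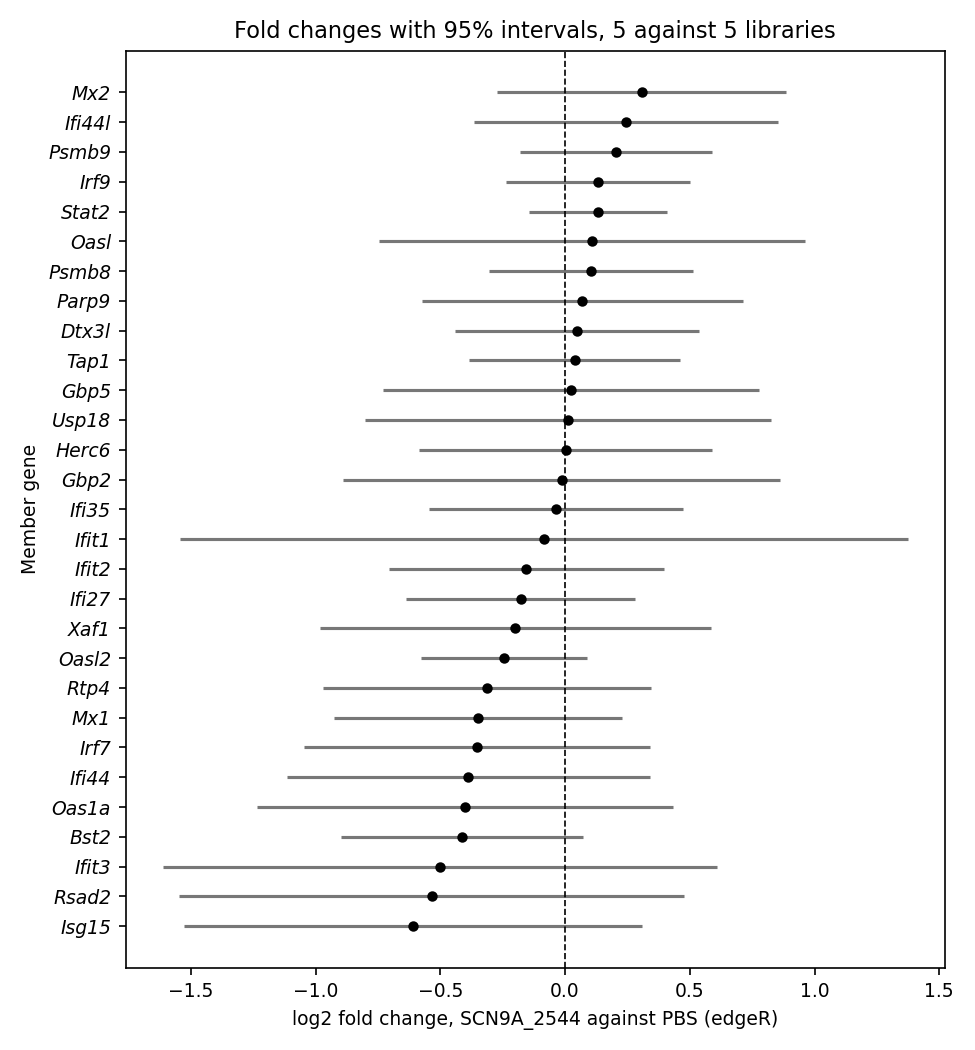
Log2 fold changes of the 29 tested members from edgeR (horizontal axis; points) with their 95% intervals (lines), 5 SCN9A_2544 against 5 PBS libraries. Values run from -0.61 for Isg15 to 0.31 for Mx2 and every line crosses 0.

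The members varied between libraries of 1 group more than most genes. The standard deviation of log2 CPM within groups had a median of 0.46 over the 29 members, against 0.35 over all tested genes, and 23 members lay above the latter. The median standard error of a member's log2 fold change was 0.28, against 0.22 over all genes. These comparisons are with tested genes of every count level, and genes of like count were not compared. Some members had few counts, such as Isg15 with 5.65 to 47.3 estimated counts per library. Both ends of this spread lay in the treated group. SCN9A_2544 replicate 3 was the highest of the 10 libraries for 12 of the 29 members, where it was the highest for 21.1% of all tested genes. SCN9A_2544 replicate 2 was the lowest for 10 of the 29, where it was the lowest for 4.56% of all genes. Centred on each gene's own mean, the average over members was 0.47 in SCN9A_2544 replicate 3 and -0.40 in SCN9A_2544 replicate 2, with the PBS libraries between -0.15 and 0.33.

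These values shifted when SCN9A_2544 replicate 3 was left out. The count above 0 became 6 of 29, beside 46.5% of all genes, and the median log2 fold change became -0.30, beside -0.02 over all genes. In that fit 4 members had an unadjusted p under 0.05, all lower (13.8%, beside 6.47% of all genes), and 0 passed the adjusted threshold. They were Irf7 (-0.81), Ifit3 (-1.25), Bst2 (-0.53) and Rtp4 (-0.61), each with an edgeR adjusted p of 0.661. Without PBS replicate 4 the count above 0 was 8 of 29. Without PBS replicate 3, SCN9A_2544 replicate 1 or SCN9A_2544 replicate 2 it was 16, and the median log2 fold change lay above 0, at most 0.04. The share of all genes above 0 is not given beside these counts of 8 and 16. It also moved between fits, being 55.8% without PBS replicate 1.

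**Figure D3:**
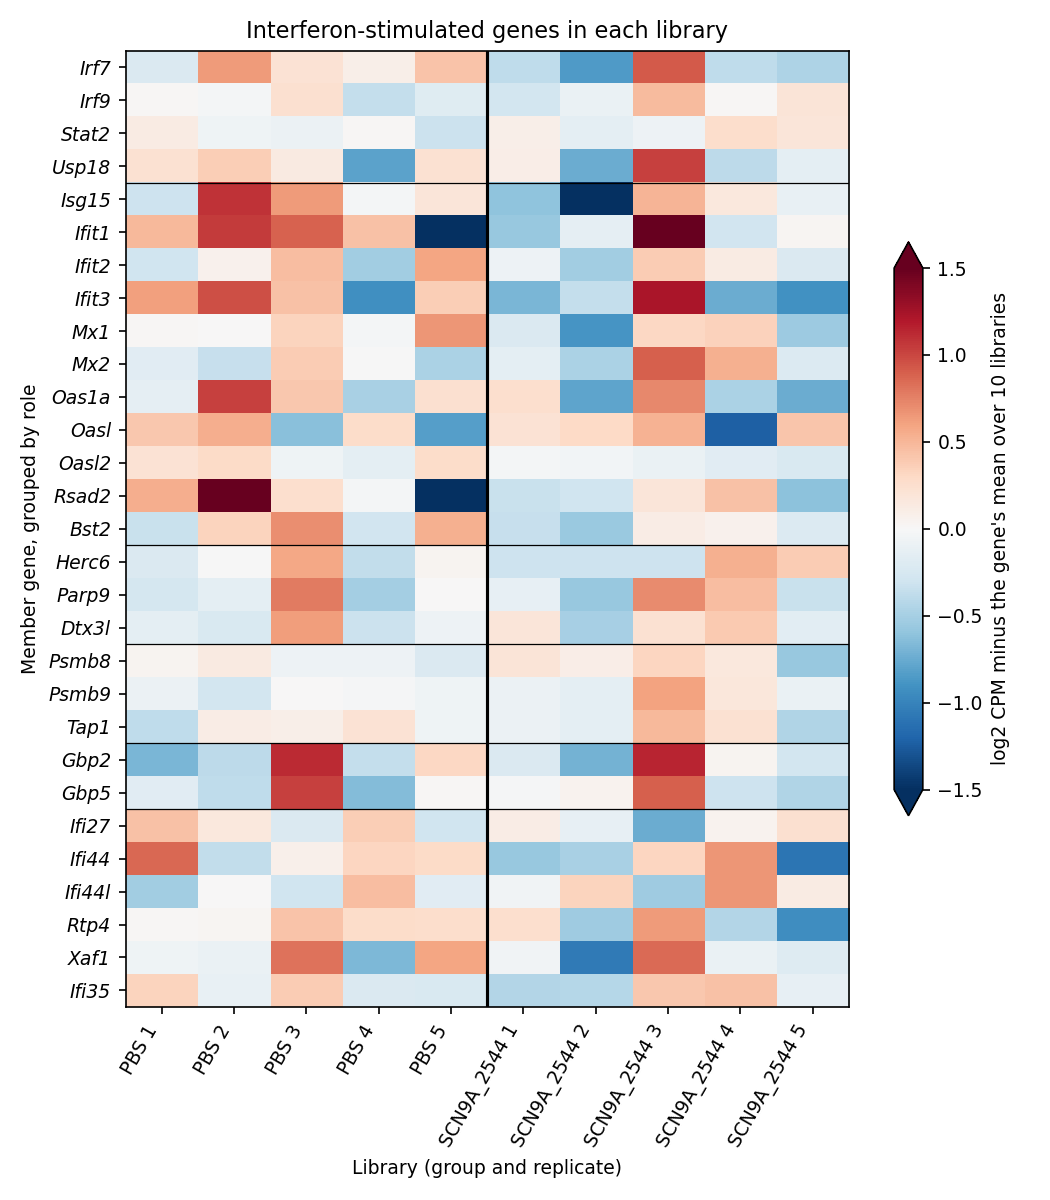
Colour shows log2 CPM minus the gene's mean over 10 libraries for the 29 tested members (rows, grouped by role) in each library (columns, PBS left and SCN9A_2544 right of the vertical line). SCN9A_2544 replicate 3 is mostly red, being the highest library for 12 members, and SCN9A_2544 replicate 2 mostly blue, being the lowest for 10.

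The ligands came first in the pathway list fixed beside the members. Ifnb1, Ifna1, Ifna4, Ifne, Ifnk, Ifnl1, Ifnl3 and the interferon gamma gene Ifng each had 0 counts in all 10 libraries. A count of 0 allows up to 3 counts per library, or 0.189 to 0.256 CPM, for counting error only. Of the receptor subunits and signalling genes, 17 had a row and 16 were tested. Of those tested, 15 lay above and 1 below 0, beside 53.4% of all tested genes above 0, and 0 passed the adjusted threshold. The remaining gene, Il10rb, a receptor subunit shared by several cytokines and expressed in many tissues, also had 0 counts in all 10 libraries. A 0 in this table was therefore not read as absence of the RNA, for Il10rb or for the interferons. Ifnar1, a subunit of the type I receptor, averaged 78.4 ± 6.52 CPM in PBS libraries and 85.5 ± 8.21 CPM in SCN9A_2544 libraries (SD, n = 5 each), and Ifnar2 at 40.2 ± 7.57 and 39.2 ± 6.45 CPM. The kinase genes Tyk2 and Jak2 had log2 fold changes of 0.26 and 0.23, and Irf8, a transcription factor of myeloid cells, had 0.48.

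Socs3, a feedback inhibitor of cytokine receptors, had the smallest p of that list. It stood at 7.83, 5.59, 8.64, 7.69 and 10.5 CPM in PBS replicates 1 to 5 and at 14.6, 14.6, 35.3, 17.0 and 15.1 CPM in the treated libraries. Every treated library lay above every PBS library, yet the log2 fold change of 1.26 (SE 0.28) had an edgeR adjusted p of 0.887. Socs3 is induced by many cytokines, the interleukin-6 family among them.

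Among nucleic acid sensors and their adaptors, 13 of 18 tested genes lay above 0 and 5 below, beside 53.4% of all tested genes above 0. Their median was 0.13, with 0 past the adjusted threshold. The sensor genes with the smallest p were Trim25, the ubiquitin ligase of RIG-I (0.47), Unc93b1, the chaperone of endosomal Toll-like receptors (0.39), Ikbke, a kinase upstream of interferon induction (0.31), and Tlr9, the receptor for DNA (0.53). Trim25 and Unc93b1 reached an unadjusted p under 0.05 (0.0461 and 0.0483), and their adjusted p by edgeR was 0.963. Both were highest in SCN9A_2544 replicate 3, at 16.5 and 44.7 CPM.

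Of the members that carry or control the signal, Irf7, the transcription factor that amplifies interferon production, had a wide spread among the treated libraries. It stood at 9.06, 16.5, 12.3, 11.2 and 14.2 CPM in PBS replicates 1 to 5 and at 8.09, 5.78, 20.02, 8.06 and 7.61 CPM in SCN9A_2544 replicates 1 to 5. Replicate 3 was the highest library of all and the other 4 treated libraries lay below every PBS library. The means were 12.7 ± 2.84 CPM and 9.91 ± 5.73 CPM (SD, n = 5 each), and the log2 fold change was -0.35 (SE 0.32, edgeR adjusted p = 0.963). Usp18, the protease that removes Isg15 from proteins and dampens the receptor, stood at 2.40, 2.66, 2.25, 1.11 and 2.40 CPM in PBS and at 2.19, 1.16, 4.29, 1.51 and 1.82 CPM in treated libraries. Its log2 fold change was 0.01 (SE 0.37), with overlapping groups, and its sign turned in 11 of 21 alternatives, among them scaling by upper quartiles or by the size factors of DESeq2. Stat2 and Irf9, the parts of the complex that binds the ISRE, were steadier, with log2 fold changes of 0.13 each (SE 0.13 and 0.17) and ranges of 51.7 to 77.6 CPM and 18.2 to 32.5 CPM over all libraries.

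The antiviral effectors lay below 0 in 9 of 11 tested genes and above 0 in 2, beside 53.4% of all tested genes above 0. Their median log2 fold change was -0.35, with 0 genes past the threshold, adjusted or unadjusted. No test was made of this count. Bst2, the tetherin that holds budding viruses on the cell surface, had the smallest p of all members (0.0879, edgeR adjusted p = 0.963). It stood at 23.4, 37.2, 47.8, 24.2 and 42.9 CPM in PBS and at 23.3, 20.1, 31.9, 30.9 and 25.6 CPM in treated libraries. The 3 highest values were PBS libraries, and the other 2 PBS libraries lay within the treated range. Its log2 fold change was -0.41 (SE 0.22, 95% interval -0.90 to 0.07).

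Isg15, the ubiquitin-like protein that gives the family its best-known name, stood at 1.10, 3.13, 2.25, 1.37 and 1.602 CPM in PBS and at 0.875, 0.408, 2.04, 1.57 and 1.28 CPM in treated libraries. The lowest 2 values were treated libraries, the highest 2 were PBS libraries, and the groups overlapped between them. Its log2 fold change of -0.61 (SE 0.42) had a 95% interval from -1.53 to 0.31, and its counts were fractional in all 10 libraries, which happens when reads are shared between features. Oasl2, a relative of the oligoadenylate synthetases, had the smallest spread within groups of these effectors. It stood at 10.6, 11.2, 8.71, 8.20 and 11.1 CPM in PBS and at 8.90, 8.84, 8.51, 8.06 and 7.75 CPM in treated libraries. The treated mean was 8.41 ± 0.499 CPM (SD, n = 5), and 3 PBS libraries lay above every treated library. Its log2 fold change was -0.25 (SE 0.15).

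Mx1 and Mx2, dynamin-like GTPases that block viral nucleoproteins, had log2 fold changes of opposite sign. Mx1 stood at 8.24, 8.18, 10.3, 7.94 and 12.9 CPM in PBS and at 7.00, 4.35, 10.1, 10.4 and 5.52 CPM in treated libraries, a log2 fold change of -0.35 (SE 0.26). Mx2 ranged from 22.6 to 40.8 CPM in PBS and from 22.5 to 58.5 CPM in treated libraries, a log2 fold change of 0.31 (SE 0.27). Neither passed the test, and both had fractional counts in 9 of 10 libraries, so the split of reads between these paralogs is uncertain.

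The widest spread of any member was in Ifit1, an RNA-binding protein of the Ifit family that seizes viral 5′ ends. It stood at 3.02, 4.52, 4.005, 2.90 and 0.0667 CPM in PBS and at 1.39, 1.90, 6.54, 1.70 and 2.16 CPM in treated libraries. PBS replicate 5 held 1 estimated count, where the other PBS libraries held 33.7 to 68.2. Its paralog Ifit1bl was also lowest in PBS replicate 5, at 1.33 CPM against 3.93 to 6.32 CPM in the other PBS libraries, while Ifit2 was highest there, at 13.1 CPM. Ifit3, their partner in the Ifit complex, stood at 1.99, 2.59, 1.76, 0.598 and 1.67 CPM in PBS and at 0.729, 0.952, 3.13, 0.693 and 0.606 CPM in treated libraries. Replicate 3 was its highest library and the other 4 treated libraries lay below 4 of the 5 PBS libraries. The log2 fold changes of Ifit1, Ifit2 and Ifit3 were -0.08, -0.15 and -0.50 (SE 0.67, 0.25 and 0.51).

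Rsad2, the radical enzyme viperin, had the second widest spread. It stood at 6.94, 13.8, 5.62, 4.61 and 1.40 CPM in PBS and at 3.72, 3.81, 5.38, 6.42 and 3.03 CPM in treated libraries. PBS replicates 2 and 5 were its highest and lowest library, and the log2 fold change of -0.54 (SE 0.46) became -0.05 without replicate 2 and -0.82 without replicate 5. Oas1a and Oasl, an oligoadenylate synthetase and a relative, had log2 fold changes of -0.40 and 0.11 (SE 0.38 and 0.39). Oas1a estimates were fractional in all 10 libraries, and its near copy Oas1b was not analysed here.

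**Figure D4:**
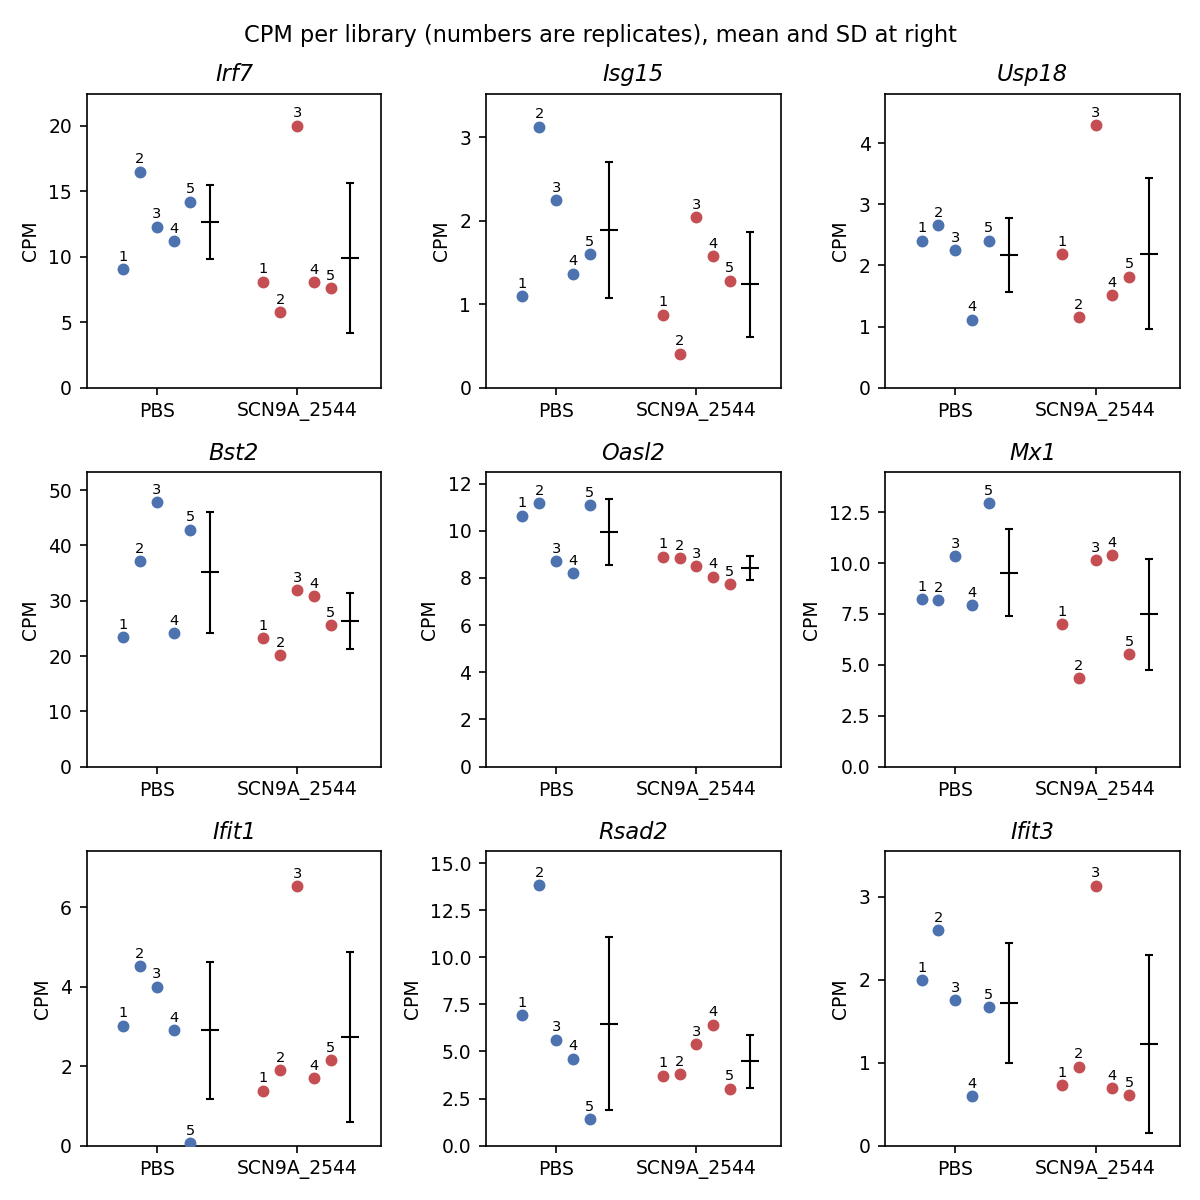
CPM per library (vertical axes, starting at 0) of 9 members in PBS (blue) and SCN9A_2544 (red), with replicate numbers at the points and the mean and SD as bars. Replicate 3 stands above the other treated libraries for Irf7, Usp18, Ifit1 and Ifit3, and PBS replicate 5 lies near 0 for Ifit1.

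The members of antigen presentation and protein modification had small log2 fold changes. Psmb8 and Psmb9, subunits of the immunoproteasome, and Tap1, a subunit of the peptide transporter, had log2 fold changes of 0.11, 0.20 and 0.04 (SE 0.19, 0.18 and 0.19). Psmb9, with the smallest p of the 3, stood at 9.68, 8.51, 10.4, 10.2 and 9.88 CPM in PBS and at 9.70, 9.32, 15.7, 11.6 and 9.63 CPM in treated libraries. Replicates 3 and 4 exceeded every PBS library and the other 3 lay within the PBS range. Herc6, a ligase that attaches Isg15 in rodents, and the partners Parp9, an ADP-ribosyltransferase family protein, and Dtx3l, a ubiquitin ligase, had log2 fold changes of 0.0024, 0.07 and 0.05, and the sign of Herc6 turned in 13 of 21 alternatives, all scaling alternatives included. The guanylate-binding proteins Gbp2 and Gbp5, GTPases that attack the membranes of intracellular pathogens, had log2 fold changes of -0.01 and 0.02 (SE 0.40 and 0.34), and the sign of Gbp5 turned with upper-quartile scaling.

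The remaining members lay mostly below 0, with 5 of 6 on that side, beside 53.4% of all tested genes above 0. Ifi44, with the smallest p of these, stood at 21.2, 8.91, 12.2, 14.5 and 14.2 CPM in PBS and at 7.73, 8.23, 14.5, 18.3 and 5.32 CPM in treated libraries, a log2 fold change of -0.39 (SE 0.33) with overlapping groups. Its neighbour in the family, Ifi44l, had 0.24 (SE 0.28). Ifi27, a small mitochondrial and nuclear membrane protein, had -0.18 (SE 0.21), Rtp4, a chaperone of receptors, -0.31 (SE 0.30), Xaf1, an antagonist of the inhibitors of apoptosis, -0.20 (SE 0.36), and Ifi35, a cytosolic partner of Nmi, -0.04 (SE 0.23).

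Other interferon-stimulated genes, listed beside the members, also split about 0. Of 28 tested type I targets, 13 lay above 0 and 15 below, with a median of -0.04 and 0 past the adjusted threshold. The 4 with the smallest p were Lgals3bp (0.42), Parp10 (0.32), Cmtr1 (0.27) and Shisa5 (0.20). Genes of the interferon gamma and class I antigen list split into 8 above and 8 below 0, with a median of -0.0024. Its smallest p belonged to Cxcl9, a chemokine that draws T cells, at 2.20, 0.865, 3.23, 2.39 and 4.07 CPM in PBS and 5.54, 2.65, 14.3, 10.96 and 4.58 CPM in treated libraries. All treated libraries but replicate 2 exceeded every PBS library (log2 fold change 1.57, SE 0.49, edgeR adjusted p = 0.963). Ciita, the regulator of class II antigen genes, had 1.07, Cxcl10, a chemokine of the same receptor, 0.76, and Tapbp, a chaperone of class I molecules, 0.18. The treated libraries did not rise together for Ciita and Cxcl10. Ciita was highest in SCN9A_2544 replicate 4, at 11.1 CPM. Replicate 5 also exceeded every PBS library, and the other treated libraries lay within the PBS range. Cxcl10 was highest in SCN9A_2544 replicate 3, at 7.83 CPM, and lowest of all libraries in SCN9A_2544 replicate 5.

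The relation of each other member with Irf7 was computed over the 10 libraries, with log2 CPM and 28 relations. The correlation was above 0 for 24 of the 28, where 49.7% of all tested genes were, and its median was 0.39. After adjustment 2 passed. The share of all tested genes that would pass is not given, so this count is not read as a result about the members. Isg15 had Pearson r = 0.82 (permutation p = 0.0027, adjusted p = 0.0442) and Spearman rho = 0.81 (permutation p = 0.00758, adjusted p = 0.0707). Oas1a had r = 0.84 (permutation p = 0.00316, adjusted p = 0.0442) and rho = 0.84 (permutation p = 0.00387, adjusted p = 0.0707). Without SCN9A_2544 replicates 3 and 2, the libraries farthest from the median of Irf7, r was 0.78 for Isg15 and 0.75 for Oas1a. There 17 of 28 lay above 0, 0 of 28 passed, and the median r was 0.15, beside -0.07 over all tested genes. With fewer libraries a relation passes less easily, so the lost passes do not show that these 2 relations rested on those libraries. SCN9A_2544 replicate 3, the highest library for Irf7, is also among the 3 of low pan-neuronal mean. How far these correlations follow that mean was not tested.

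The 3 libraries of low pan-neuronal mean differed from the other 7 in much of the transcriptome, and the members shared in this. In the 3 libraries of low pan-neuronal mean, which are 1 treated and 2 PBS libraries, Gbp2, Xaf1 and Ifit2 were higher than in any of the other 7, beside 11.9% of all tested genes, and Ifi27 was lower, beside 14.0% of all. Counts of 3 and 1 of 29 members are not above those shares. The same 3 libraries were the highest in Schwann cell markers, at 9.81 to 10.2 log2 CPM against at most 9.33 elsewhere, and in endothelial markers, at 4.30 to 4.52 against at most 4.28. Which of these moves with the members was not tested. Gbp2 stood at 38.7 to 68.8 CPM in the 3 and at 19.04 to 32.0 CPM in the 7, and Ifi27 at 133 to 192 CPM in the 3 and at 204 to 303 CPM in the 7. Because these 3 libraries stand apart, no correlation with the pan-neuronal mean over all 10 is given for single members. Within the other 7, r with the pan-neuronal mean lay below 0 for 23 of 29 members with a median of -0.34, beside 47.0% of all tested genes and a median of 0.05, and 0 passed after adjustment over the 29. There Bst2 had r = -0.90 (permutation p = 0.0134, adjusted p = 0.389) and rho = -0.64 (permutation p = 0.139, adjusted p = 0.976), and Ifit2 r = -0.79 (permutation p = 0.0441, adjusted p = 0.587) and rho = -0.79 (permutation p = 0.0484, adjusted p = 0.95). When the pan-neuronal mean entered the fit as covariate, 13 members lay above 0, as without it, 0 passed the adjusted threshold, and 2 had an unadjusted p under 0.05 (6.90%, beside 9.73% of all genes). With the Schwann cell mean as covariate 1 member did, beside 8.70% of all genes. Without the 3 libraries 4 members did, beside 3.39% of all genes, all lower and 0 past the adjusted threshold: Ifit1 (-0.99), Irf7 (-0.76), Ifit3 (-1.26) and Rsad2 (-1.03). By limma voom with library weights 7 members did, all lower, beside 20.9% of all genes.

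**Figure D5:**
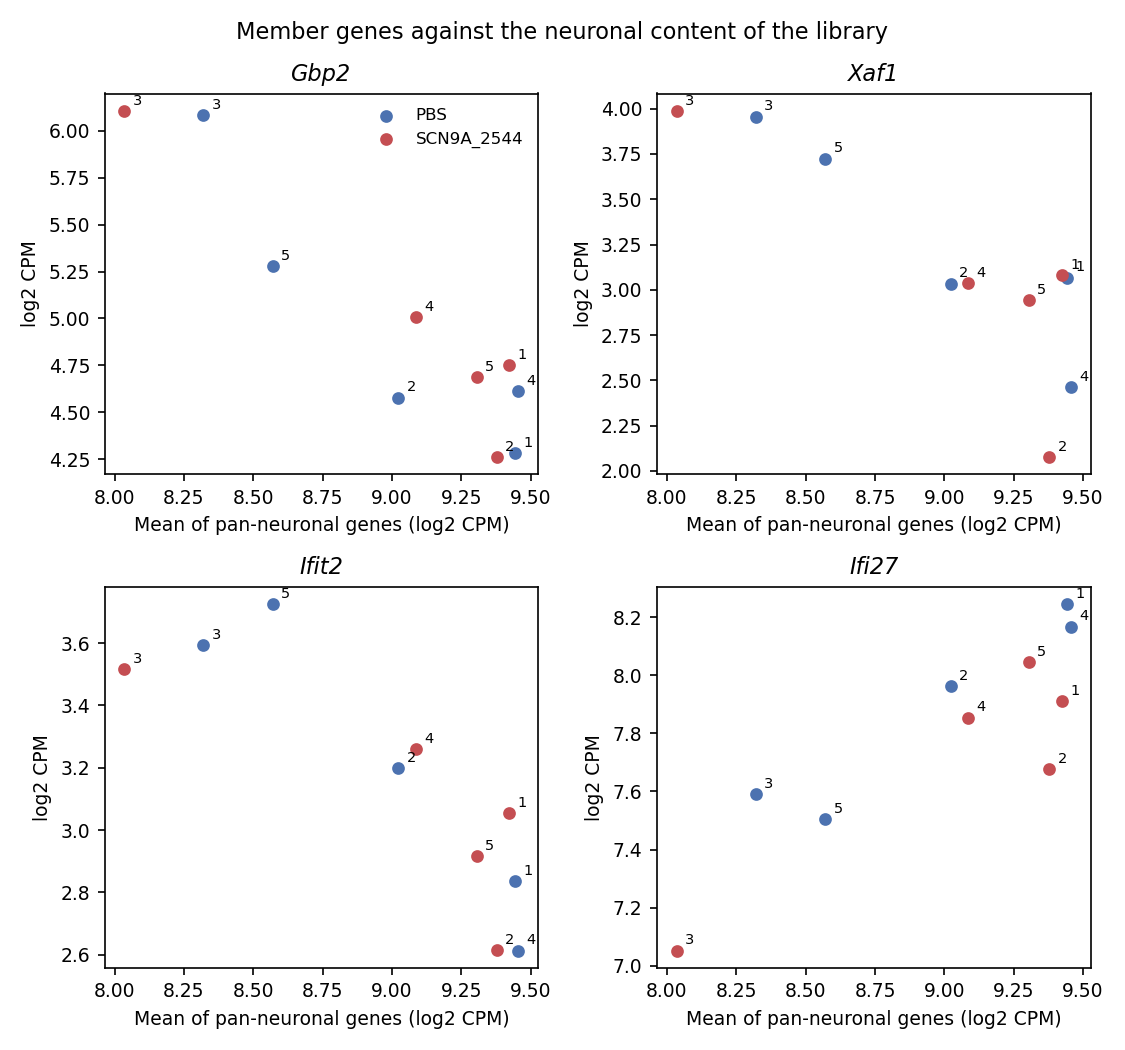
Log2 CPM of 4 members (vertical axes) against the mean log2 CPM of pan-neuronal genes (horizontal axes) in the 10 libraries, PBS in blue and SCN9A_2544 in red, with replicate numbers. The 3 libraries at 8.04 to 8.57 are the highest for Gbp2, Xaf1 and Ifit2 and the lowest for Ifi27.

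Macrophages can express many of these genes, and their markers had the median log2 fold change of 0.60 given above. With the macrophage mean as a covariate 5 of 29 members lay above 0, beside 51.3% of all genes, and the median log2 fold change was -0.42, beside 0.01. That mean itself differed between the groups, at 3.47 to 4.08 log2 CPM in PBS and 3.96 to 4.78 in SCN9A_2544 libraries. The fit therefore cannot separate treatment from macrophage level, and its fold changes are not read as treatment effects. An unadjusted p under 0.05 was reached by 4 members, all lower (13.8%, beside 4.58% of all genes): Isg15 (-1.597), Irf7 (-1.09), Mx1 (-0.97) and Bst2 (-0.82), each with an edgeR adjusted p of 0.679. The correlation of members with the macrophage mean over the 10 libraries was a relation added after the data were seen. It had a median of 0.18, beside 0.01 over all tested genes. It lay above 0 for 24 of 29 members, beside 51% of all tested genes, and 0 of 29 passed after adjustment. For values centred on their group mean the median was 0.42, with 26 above 0, and no value over all genes is given beside it. Without SCN9A_2544 replicates 4 and 3 it was -0.07, with 9 above 0, beside a median of 0.03 over all genes. The part of these cells in the levels of the members was not tested.

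The neighbouring pairs were set side by side over the 10 libraries, with p-values adjusted over these 2 relations. Parp9 and Dtx3l had r = 0.91 (permutation p = 0.00026, adjusted p = 0.00052) and rho = 0.94 (permutation p = 0.00025, adjusted p = 0.0005), and r = 0.89 without PBS replicate 3 and SCN9A_2544 replicate 3. Psmb9 and Tap1 had r = 0.67 (permutation p = 0.0302, adjusted p = 0.0302) and rho = 0.68 (permutation p = 0.0351, adjusted p = 0.0351), and r = 0.07 without SCN9A_2544 replicates 3 and 4, so that relation rested on those libraries. Parp9 and Dtx3l each had fractional counts in 8 libraries, and Psmb9 and Tap1 in all 10. In each such library the fractions of a pair made up a whole count, to rounding. In PBS replicate 2, for example, Parp9 had 250.377 and Dtx3l 179.623, and Psmb9 had 128.234 and Tap1 217.765. Some reads were thus divided within each pair, and the levels of partners are not separate measurements. The part of this division in the correlations was not tested.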

How the data were processed

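Values were the authors' estimated counts for each gene, which carry no normalization; between 11.6% and 12.4% of values per library were not whole. STAR 2.7.10a, DESeq2 1.44.0 and build mRatBN7.2 are named, without roles, per the submitters' processing notes. For counting, no program, annotation release or strand setting is named in the sources used here. Per the labels' protocols, poly(A) RNA was sequenced in pairs of reads. Estimated counts were rounded, filtered with filterByExpr (minimum count 10, total 15), scaled with TMM and tested with edgeR 4.0.16 (R 4.3.3, quasi-likelihood F-test, Benjamini-Hochberg over all tested genes, threshold 0.05); DESeq2 1.42.0 and limma 3.58.1 voom were alternatives. The standard error is the fold change divided by the square root of F, and log2 CPM used a prior count of 2. Correlations used 100000 permutations. The edgeR steps and the correlation test were checked on simulated data. A chi-square per gene over 45 pairs of libraries ran from 7.70 to 218, so no library repeated another. The members and lists were chosen with earlier results of these data known. Every member is named; from other lists, up to 4 genes with the smallest p. Values of all libraries are given for the 6 members with the smallest p, Irf7, Isg15, Usp18, the 3 of widest spread, Socs3 and Cxcl9. Socs3, Cxcl9 and the genes plotted against neuronal content were chosen for this after their values were seen. A further gene of that rule is not reported here.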

Additional observations from a re-analysis of the deposited data

Results flagged for a closer look

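Some single libraries stood far from the other 4 of their group in CPM, by Dixon's test at the 95% level. Of 58 tests, 2 groups for each of 29 members, 9 passed, where 2.9 would by chance, and members move together, so the tests are not independent. The share of all tested genes that would pass was not computed, so the count is not read as particular to the members. SCN9A_2544 replicate 3 was the highest library for 21.1% of all tested genes and PBS replicate 3 for 17.2%. SCN9A_2544 replicate 3 was the high library for Irf7 (20.02 CPM), Ifit1 (6.54 CPM), Ifit3 (3.13 CPM), Gbp2 (68.8 CPM) and Gbp5 (21.0 CPM). PBS replicate 3 was the high library for Dtx3l (21.8 CPM) and Gbp5 (22.8 CPM). Low libraries were PBS replicate 4 for Usp18 (1.11 CPM) and SCN9A_2544 replicate 4 for Oasl (0.882 CPM). Both libraries named replicate 3 are among the 3 of low pan-neuronal and high Schwann cell mean.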

How the results depend on the processing

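Over 21 alternatives 0 of 607 member values passed an adjusted p of 0.05, and 82 turned sign, in 17 members. Scn9a kept its direction and its p under 0.05 throughout. Over all genes edgeR called 0, DESeq2 17, and 1 each by limma voom with library weights, with the pan-neuronal or the Schwann cell mean as covariate, and without the 3 libraries of low pan-neuronal mean; leaving out 1 library gave 0 to 1. Members above 0 numbered 13, against 6 by voom and 5 with the macrophage covariate, and 6 to 16 without 1 library. Members at an unadjusted p under 0.05 numbered 0, against 7 by voom (24.1%, beside 20.9% of all genes), 2 with the pan-neuronal, 1 with the Schwann cell and 4 with the macrophage covariate, 4 without the 3 libraries, and 0 to 4 without 1 library. The median was -0.04, against -0.42 with the macrophage covariate and -0.30 to 0.04 without 1 library.

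Signs turned as follows, in log2 fold change. DESeq2 gave Herc6 -0.016 and Usp18 -0.011, and its size factors in edgeR gave Herc6 -0.017 and Usp18 -0.011. Upper-quartile scaling gave Herc6 -0.027, Gbp5 -0.0058 and Usp18 -0.024, and no filter on low counts gave Herc6 -0.028, Gbp5 -0.0056 and Usp18 -0.024. Voom gave Psmb8 -0.044, Tap1 -0.18, Oasl -0.10, Irf9 -0.0025, Parp9 -0.14, Herc6 -0.058 and Usp18 -0.54. The pan-neuronal covariate gave Gbp2 0.087 and Usp18 -0.019, and the Schwann cell covariate gave Gbp2 0.17. The macrophage covariate gave Psmb8 -0.082, Tap1 -0.41, Psmb9 -0.054, Mx2 -0.32, Ifi27 0.036, Dtx3l -0.27, Parp9 -0.58, Herc6 -0.21, Gbp5 -0.21 and Usp18 -0.42. The libraries without the 3 of low pan-neuronal mean gave Psmb8 -0.062, Tap1 -0.12, Oasl -0.41, Gbp2 0.18, Ifit2 0.049 and Usp18 -0.35. Ranges without 1 library were Dtx3l from -0.047 to 0.25, Gbp2 from -0.46 to 0.38, Gbp5 from -0.30 to 0.40, Herc6 from -0.16 to 0.18, Ifi35 from -0.18 to 0.062 and Ifit1 from -0.72 to 0.13. Further ranges were Irf9 from -0.019 to 0.22, Oasl from -0.086 to 0.33, Parp9 from -0.16 to 0.33, Tap1 from -0.13 to 0.14, Usp18 from -0.42 to 0.17 and Xaf1 from -0.56 to 0.0067. The cause was not tested.

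Relations with Irf7 that passed numbered 2, against 0 without the 2 farthest libraries and 0 with values centred on their group mean. Relations with the pan-neuronal mean that passed numbered 7 over 10 libraries, 2 without the 2 farthest and 0 within the 7. The share of all tested genes passing is not given beside these counts. Because the 3 libraries of low pan-neuronal mean stand apart, the count over 10 is not read as a result about the members. Whether the replicate numbers pair the samples was not settled. Same-numbered libraries correlated at 0.38, 0.00, 0.57, -0.01 and 0.05 in their deviations, and 2 of 5 matched their own number best. Such values can neither show nor exclude pairing. A replicate block called 0 genes and 0 members, with 11 members above 0 and a median of -0.06, Herc6 at -0.013 and Usp18 at -0.064. The part of depth in the spread of members with few counts was not tested.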
